A study of Homo sapiens with 24 samples.

Results

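TYUC-1 cells engineered to express ΔNp63 were compared after 6 days of induction and at day 0, with 3 RNA-seq libraries per group. TYUC-1 is a human cancer cell line grown in suspension and labelled as a neuroendocrine carcinoma of the esophagus. The comparison was defined by the sample titles and used 6 of the 24 libraries of the series, which also holds days 1 and 3 of the same line and the same 4 times in a line expressing TAp63. The day 6 group carried the i-DNp63 genotype and received doxycycline at 1 µg/ml for 6 days. The day 0 group carried the same genotype and received the vehicle DMSO for 6 days. A treatment label also names EPZ-6438, a drug that blocks the polycomb enzyme EZH2, for 6 days in the day 6 libraries and 0 days in the day 0 libraries. The TAp63 libraries of days 6 and 0 carry the same days of doxycycline, DMSO and labelled EPZ-6438. In both lines, libraries of days 1 and 3 had 1 and 3 days of doxycycline and 5 and 3 days of DMSO. For these the label gives 1 and 3 days of EPZ-6438. Induction of ΔNp63, doxycycline itself and any exposure to EPZ-6438 therefore cannot be told apart here. The labels do not say whether the line is a clone or a pool, and a line given doxycycline without a transgene was not analysed here. The replicates are called biological with no word on separate cultures, so p-values measure only the spread between these libraries.

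TP63 is a transcription factor of the p53 family that squamous epithelia need to form and to keep their basal layer. Its ΔN isoform starts at an internal promoter, lacks the N-terminal transactivation domain of TAp63, and is the main form in basal keratinocytes, where it acts on keratin, adhesion and matrix genes. Neuroendocrine carcinomas, in contrast, are named for genes of secretory granules and neural fate, and those driven by POU2F3 express genes of tuft cells, the chemosensory cells of many mucosae.

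Library totals ran from 6375963 to 14302975 counts at day 6 and from 12724449 to 18277720 counts at day 0. The shallowest of these was day 6 replicate 3. The shallowest of the series, replicate 3 of ΔNp63 day 1 at 1530847 counts, was kept out of the main fit. Among the alternative fits, only the one of all 24 libraries held it. Replicates of 1 group all differed by more than sampling noise (chi-square per degree of freedom of 7.33 to 25.9). Levels below are CPM, counts scaled to library sizes adjusted by the trimmed mean of M values (TMM), and changes are log2 day 6 over day 0 ± SE. Calls are genes whose edgeR quasi-likelihood p, adjusted by Benjamini-Hochberg over all tested genes, was under 0.05, and "rose" and "fell" refer to called genes only.

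The neuroendocrine label was checked against 23 markers, of which 12 had enough counts to be tested. CHGA and INSM1, which define the neuroendocrine class, were too low to be tested, at 0.257 and 0.434 CPM at day 6 and 0.309 and 0.376 CPM at day 0. RESP18, PCSK1, GRP and STMN2 had 0 counts in all 6 libraries. PCSK1 lies wholly under another gene's span, so its 0 says nothing of its expression. Tuft cell genes were present in both groups: POU2F3 averaged 160.1 ± 13.4 CPM at day 6 and 196 ± 13.7 CPM at day 0, and KIT 342 ± 37.7 and 368 ± 11.4 CPM (SD, n = 3 each).

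TP63 (chromosome 3, 189596746 to 189897279, hg38) had 1034, 836 and 908 CPM at day 6, against 4.94, 3.98 and 4.14 CPM at day 0. Every induced library lay far above every uninduced one. The log2 change was 7.74 ± 0.19 (edgeR, adjusted p = 1.81e-16). Counts sum over the whole transcript span and over all isoforms, so they do not separate ΔNp63 from TAp63 or the transgene from the cell's own gene.

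After 6 days of ΔNp63 the cells carried more RNA of some basal and suprabasal keratins, calcium-binding S100 proteins, matrix proteins and MHC class I components, and less RNA of a minority of tuft cell markers. Of 15783 genes tested, 784 (4.97%) were called: 556 rose (3.52%) and 228 fell (1.44%). At least 2-fold changes made up 266 of the rises (1.69%) and 60 of the falls (0.38%). The median log2 change was 0.95 over the risen genes and -0.73 over the fallen ones, against -0.0077 over all tested genes. The libraries of the groups did not overlap for 780 of the 784 called genes (99.5%), and for 17.7% of all tested genes. Most called genes named below were drawn from those without overlap, so their lack of overlap was fixed by that choice. Of the risen genes, 505 were protein-coding and 31 long non-coding RNAs, and 104 averaged under 1 CPM at day 0. With the replicate number as a block, 1284 genes (8.14%) were higher and 937 (5.94%) lower, and all 784 calls kept their sign and their call. The main fit, used for all calls unless the block is named, had no block. The shares with and without the block are the background for the list counts below. The 228 falls became 111 without day 6 replicate 1, and 147 and 139 without day 0 replicates 1 and 2.

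**Figure D1:**
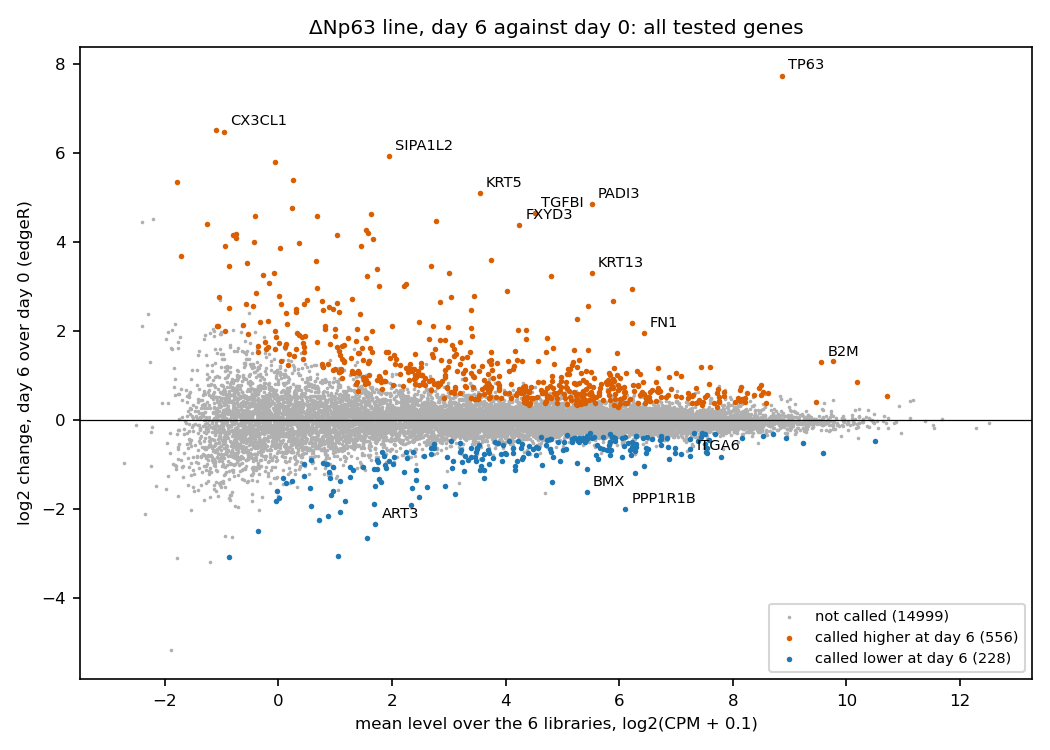
Log2 change at day 6 over day 0 of ΔNp63 induction (vertical axis) against the mean level over the 6 libraries as log2(CPM + 0.1) (horizontal axis), 1 point per tested gene. Orange points are the 556 genes called higher, blue points the 228 called lower and grey points the genes not called; TP63 stands apart at 7.74.

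Some keratins and proteins of stratified squamous epithelium rose. Of 14 keratin genes tested, 6 rose (KRT4, KRT5, KRT13, KRT15, KRT19 and KRT80) and 0 fell, with a median log2 change of 0.64. With the replicate block 9 were higher, KRT7, KRT8 and KRT17 among them, and 0 lower. Among 8 tested markers of squamous basal cells, KRT5, KRT15, TRIM29, S100A2 and TP63 itself rose, 5 in all, and 0 fell. The rise of TP63, the induced gene, was set by the design. Among 5 tested suprabasal markers, KRT13, KRT4 and CRNN rose and 0 fell. Other squamous markers were at or near 0: KRT14, the usual partner of KRT5, had 0 counts at day 6 and 4 at day 0, IVL had 3 and 0 counts, and KRT1 had 0 counts in all 6 libraries.

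KRT5 encodes the type II keratin of basal keratinocytes (chromosome 12, 52514575 to 52520394). It had 26.4, 19.7 and 21.3 CPM at day 6, against 0.659, 0.739 and 0.525 CPM at day 0. The groups were far apart, with a log2 change of 5.11 ± 0.29 (edgeR, adjusted p = 4.97e-10). KRT13, a keratin of the suprabasal layers of the esophagus, had 109.9, 72.9 and 65.4 CPM at day 6, against 10.9, 6.93 and 7.49 CPM at day 0. Day 6 replicate 1 was the highest, and the lowest day 6 library was still above the highest day 0 library (log2 change 3.31 ± 0.27, adjusted p = 1.09e-07). KRT15, another keratin of basal cells, had 39.8, 29.7 and 28.5 CPM at day 6, against 11.7, 6.25 and 6.44 CPM at day 0, again without overlap and with a log2 change of 2.03. KRT4, the usual partner of KRT13, had 6.94, 6.76 and 3.95 CPM at day 6, against 0.742, 0.853 and 0.591 CPM at day 0, a log2 change of 3.02. KRT17 averaged 3.11 ± 0.363 CPM at day 6 and 1.65 ± 0.498 CPM at day 0 and passed the test with the replicate block only (adjusted p = 0.0348 with it and 0.299 without).

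PADI3 (chromosome 1, 17249098 to 17284232) encodes a peptidylarginine deiminase of hair follicles and epidermis, an enzyme that turns arginine of structural proteins into citrulline. It had 85.9, 82.9 and 96.7 CPM at day 6, against 2.97, 3.07 and 3.09 CPM at day 0. The replicates of each group were close together, and the log2 change was 4.86 ± 0.20 (edgeR, adjusted p = 1.49e-12). PADI3 was the 1 riser among 6 tested deiminases and transglutaminases. TCHH, which encodes trichohyalin, a substrate of PADI3, had 5.54, 2.3 and 3.64 CPM at day 6, against 1.07, 0.909 and 1.38 CPM at day 0, and rose by 1.77 ± 0.33 (adjusted p = 0.00183). Of 22 tested genes of squamous differentiation and the cornified envelope, 9 rose and 0 fell, with a median of 0.37. CRNN, which encodes the esophageal protein cornulin, had 12.9, 10.1 and 9.96 CPM at day 6, against 3.3, 3.47 and 2.69 CPM at day 0 (log2 change 1.80). PPL, which encodes the desmosomal plaque protein periplakin, had 112, 86.8 and 105 CPM at day 6, against 72, 55.4 and 52.5 CPM at day 0 and rose by 0.76. With the replicate block 11 of the 22 were higher and 3 lower. The 3 were the small proline-rich genes SPRR1B, SPRR2A and SPRR2D, and near-identical copies can split their reads.

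Known p63 targets of keratinocytes moved in part. Of 24 tested, 7 rose (KRT5, FAT2, RIPK4, TRIM29, S100A2, PKP1 and BMP7) and JAG1 and VDR fell; the median was 0.21. The replicate block gave 11 higher and 2 lower. The 2 fallen became 0 without day 6 replicate 1 or day 0 replicate 3 and 1 without any 1 of the other libraries. The 7 risen became 5 without day 0 replicate 1 and 6 or 7 without any 1 of the other libraries. FAT2 and RIPK4 lost their calls in some of these fits. TRIM29, a basal epithelial ubiquitin ligase, had 129.5, 122 and 116 CPM at day 6, against 24.6, 32.9 and 23.6 CPM at day 0, with no overlap and a log2 change of 2.18 ± 0.18 (adjusted p = 1.67e-07). PKP1, a plakophilin of desmosomes, had 77.4, 73 and 81.3 CPM at day 6, against 47.5, 54.4 and 43.9 CPM at day 0 and rose by 0.67. JAG1, a Notch ligand, had 34.9, 31.5 and 39.8 CPM at day 6, against 50.1, 44.2 and 45.9 CPM at day 0 (log2 change -0.41, adjusted p = 0.0229), and it was no longer called without any 1 of day 6 replicates 1 and 2 and day 0 replicates 1 and 3 (adjusted p = 0.0551 to 0.147). COL17A1, a hemidesmosome collagen of basal cells, averaged 9.57 ± 2.62 CPM at day 6 and 11.6 ± 2.21 CPM at day 0 and was not called (adjusted p = 0.686).

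Transcription factors of basal epithelium went both ways, with 3 risen and 3 fallen of 23 tested and a median of 0.07. The block gave 6 higher and 4 lower. The 3 fallen became 1 without day 6 replicate 3 or day 0 replicate 2. The 3 risen became 2 or 3 with 1 library left out, and GRHL3 lost its call in some of these fits. GRHL1, a grainyhead factor of epidermal differentiation, had 62, 65.9 and 57.2 CPM at day 6, against 31.6, 31.4 and 32.8 CPM at day 0 and rose by 0.95 ± 0.10 (adjusted p = 2.87e-06). HES2, a basic helix-loop-helix repressor, had 6.39, 8.42 and 9.01 CPM at day 6, against 3.21, 2.9 and 3.61 CPM at day 0 and rose by 1.28. SOX2 had 0 counts in all 6 libraries and lies wholly under the span of another gene, so nothing can be said of its expression; this held for 42 of the 94 genes with 0 counts among the 1379 genes of all lists.

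S100 proteins, small calcium-binding proteins abundant in squamous cells, and annexins, their membrane-binding partners, had 7 risen and 2 fallen of 21 tested, with a median of 0.45. In the fit with the replicate block the counts were 13 and 2. S100A16 had 71.9, 59.2 and 57.5 CPM at day 6, against 15.5, 13.6 and 10.2 CPM at day 0, and S100A10, the partner of annexin A2, had 28.2, 35 and 26.6 CPM at day 6, against 6.26, 9.95 and 5.78 CPM at day 0. Neither gene's groups overlapped, which the rule for naming them required. S100A16 rose by 2.27 ± 0.17 (edgeR, adjusted p = 2.74e-08) and S100A10 by 2.02 ± 0.24 (adjusted p = 1.04e-05). S100A2, a marker of basal cells, had 10.9, 14.9 and 16.6 CPM at day 6, against 2.72, 4.15 and 5.45 CPM at day 0, with a log2 change of 1.76. S100A8, a subunit of calprotectin, had 1.72, 1.15 and 1.11 CPM at day 6, against 0.0824, 0.171 and 0.131 CPM at day 0, and part of its span lies under S100A7A. The fallen members were S100P and ANXA3, and these 2 became 0 without day 6 replicate 1 and 1 without any 1 of the other libraries. The 7 risen became 5 without day 0 replicate 3 and 6 to 8 without any 1 of the other libraries. S100A13 and ANXA2 lost their calls in some of these fits.

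Upstream sequences of 5 risen genes are shown because 4 of them hold a match to the p53-family half-site and TGFBI, whose rise was among the largest, holds none. Each run is the 250 bases before the RefSeq start of the gene in GRCh38.p14, 5′ to 3′ on the gene's own strand, in lower case with the match in capitals.
KRT5, chr12:52520395-52520644, minus strand: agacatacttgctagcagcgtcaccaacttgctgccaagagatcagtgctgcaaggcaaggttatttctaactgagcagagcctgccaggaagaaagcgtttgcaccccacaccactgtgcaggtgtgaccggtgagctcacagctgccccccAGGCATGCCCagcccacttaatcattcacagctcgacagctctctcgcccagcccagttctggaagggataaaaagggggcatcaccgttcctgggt
S100A16, chr1:153613138-153613387, minus strand: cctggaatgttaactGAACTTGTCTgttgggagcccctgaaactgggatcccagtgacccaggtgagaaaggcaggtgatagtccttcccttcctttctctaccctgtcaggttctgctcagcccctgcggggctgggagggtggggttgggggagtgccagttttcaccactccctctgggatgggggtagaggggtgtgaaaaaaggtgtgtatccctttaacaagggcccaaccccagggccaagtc
PLK2, chr5:58460087-58460336, minus strand: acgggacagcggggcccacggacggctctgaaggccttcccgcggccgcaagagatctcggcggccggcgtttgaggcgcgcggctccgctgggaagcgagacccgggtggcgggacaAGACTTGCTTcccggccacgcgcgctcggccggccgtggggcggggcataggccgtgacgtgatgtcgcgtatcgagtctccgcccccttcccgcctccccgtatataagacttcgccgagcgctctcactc
FGFBP1, chr4:15938741-15938990, minus strand: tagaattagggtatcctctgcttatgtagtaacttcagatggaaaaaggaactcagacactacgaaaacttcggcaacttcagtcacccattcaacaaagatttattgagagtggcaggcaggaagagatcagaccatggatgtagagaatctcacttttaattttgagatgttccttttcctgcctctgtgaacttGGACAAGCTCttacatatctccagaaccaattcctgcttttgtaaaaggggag
TGFBI, chr5:136028738-136028987, plus strand: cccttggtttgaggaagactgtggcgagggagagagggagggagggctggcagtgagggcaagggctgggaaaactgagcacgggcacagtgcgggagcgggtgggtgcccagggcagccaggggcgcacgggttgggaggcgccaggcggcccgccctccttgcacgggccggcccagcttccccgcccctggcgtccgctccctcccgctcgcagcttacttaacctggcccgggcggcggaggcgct

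The half-site was searched as the standard p53-family consensus in the 250 bases before and 50 after each RefSeq start. The consensus reads the same on both strands, so 1 search covers both. The match began 97 bases before the start of KRT5, 235 before that of S100A16, 132 before that of PLK2 and 53 before that of FGFBP1. It was present in 40 of 416 risen genes with a sequence (9.62%), in 9 of 155 fallen genes (5.81%), in 5.35% of 11911 tested genes and in 6.54% of all 27305 promoters. The paired core CATGNNNNNNCATG, which is its own reverse complement too, was in 0 of 416 risen and 0 of 155 fallen genes' windows, in 0.201% of tested genes and in 0.392% of all promoters. These are matches of letters in a short window and not measured binding. PLK2, a polo-like kinase, had 3.98, 3.81 and 4.27 CPM at day 6, against 0.906, 0.682 and 2.3 CPM at day 0, with a log2 change of 1.62 (adjusted p = 0.00742), and it was not called without day 0 replicate 2 (adjusted p = 0.0563). FGFBP1, a carrier of secreted FGFs in squamous cells, had 1.33, 1.87 and 2.69 CPM at day 6, against 0.330, 0.398 and 0.788 CPM at day 0 (log2 change 1.88, adjusted p = 0.0341), and it was not called without any 1 of day 6 replicates 2 and 3 and day 0 replicates 1 and 2 (adjusted p = 0.087 to 0.153).

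**Figure D2:**
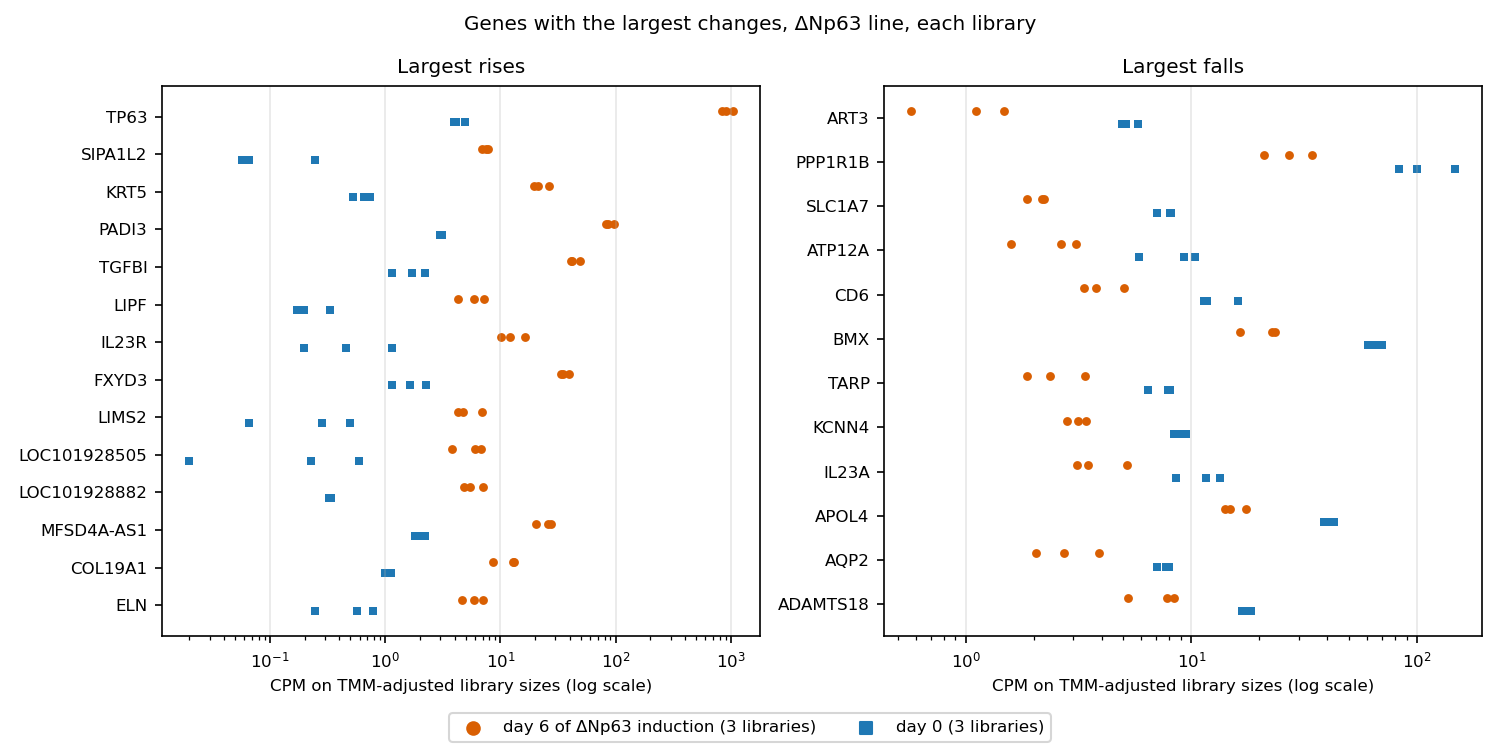
CPM on TMM-adjusted library sizes (horizontal axis, log scale) of the 14 genes with the largest rises (left) and the 12 with the largest falls (right), with 1 symbol per library: orange circles for day 6 and blue squares for day 0. The groups do not overlap for any gene shown, which the rule for naming them required; the day 0 library of LOC101928505 with 0 counts is drawn at the left end.

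Some genes of secreted matrix and its modifiers rose as well. Of 28 tested extracellular matrix genes 7 rose and 0 fell, and the median was 0.43. With the replicate block 13 were higher and 2, FBN1 and TNN, were lower. The 7 became 4 without day 6 replicate 1 and 5 or 6 without any 1 of the other libraries; FN1, TGFBI, LOX and COL19A1 were called in all 6 of these fits, and NID1, a basement membrane protein, in none. The summed level of the list was 752 to 809 CPM at day 6, against 468 to 493 CPM at day 0. TGFBI (chromosome 5, 136028988 to 136063818), a secreted protein that binds collagens and integrins, had 41.7, 40.6 and 49 CPM at day 6, against 1.15, 1.71 and 2.23 CPM at day 0. The log2 change was 4.66 ± 0.19 (edgeR, adjusted p = 1.82e-12), with no day 0 library near the day 6 ones. FN1, which encodes fibronectin, had 145, 127 and 139.7 CPM at day 6, against 39.8, 32.6 and 33.6 CPM at day 0 and rose by 1.96 ± 0.15 (adjusted p = 2.77e-08). COL19A1, a basement membrane zone collagen, had 12.9, 13.2 and 8.69 CPM at day 6, against 0.989, 1.08 and 1.12 CPM at day 0 (log2 change 3.45). ELN, which encodes elastin and stands outside that list, had 5.93, 4.68 and 7.11 CPM at day 6, against 0.247, 0.568 and 0.788 CPM at day 0, and LOX, the enzyme that crosslinks elastin and collagen, had 11.7, 9.71 and 6.96 CPM at day 6, against 3.38, 4.15 and 3.09 CPM at day 0. Their log2 changes were 3.39 and 1.43, and neither overlapped between groups. COL3A1 rested on 32 counts at day 6 and 2 at day 0, a depth-adjusted ratio of 21.8 with an exact 95% interval of 5.55 to 187 for counting error alone, and it was not called without day 6 replicate 1 (adjusted p = 0.0636).

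Adhesion genes changed in both directions. Of 28 integrins and laminins tested, ITGB5 and LAMB1 rose and ITGA6 fell, with a median of 0.09. Blocking by replicate gave 6 higher and 2 lower. LAMB1, the β1 chain of laminin, had 202, 207 and 203 CPM at day 6, against 131, 125 and 115 CPM at day 0 and rose by 0.72 ± 0.11 (adjusted p = 0.000227). ITGA6, which pairs with ITGB4 in hemidesmosomes, had 105, 112 and 115 CPM at day 6, against 214, 176 and 193 CPM at day 0 and fell by 0.81 on the log2 scale (adjusted p = 0.000186). An antisense gene covers part of ITGA6, and no strand option was used in counting. LIMS2, a focal adhesion adaptor, had 6.94, 4.32 and 4.74 CPM at day 6, against 0.494, 0.284 and 0.0657 CPM at day 0, a log2 change of 4.27 ± 0.37, and 15.6% of its span lies under GPR17. TNS4, a tensin-family adaptor, had 7.64, 8.7 and 8.69 CPM at day 6, against 0.824, 1.42 and 0.657 CPM at day 0 and rose by 3.07. Of 26 tight and adherens junction genes NECTIN1 rose, at 266, 278 and 276 CPM at day 6, against 173, 217 and 169.9 CPM at day 0, and CLDN4 and CGN fell. CLDN4, a claudin, was not called without any 1 of day 6 replicates 1, 2 and 3 and day 0 replicates 1 and 2 (adjusted p = 0.0522 to 0.11). CGN, which encodes cingulin of tight junctions, had 45.8, 44.2 and 47.3 CPM at day 6, against 73, 66.9 and 62.1 CPM at day 0 (log2 change -0.56, adjusted p = 0.00101). In the blocked fit 5 of these junction genes were higher, CDH1 and GJA1 among them, and 3 lower.

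Heparan sulfate proteoglycans, which hold growth factors at the cell surface, had 6 risen and 1 fallen gene of 27 tested, with a median of 0.12, and 8 higher and 2 lower with the block. SDC1 and SDC2 are the syndecans that rose: SDC1 had 69.6, 72.4 and 87.6 CPM at day 6, against 34.9, 42.5 and 35.6 CPM at day 0, and SDC2 411, 439 and 474 CPM at day 6, against 288, 245 and 266 CPM at day 0. The log2 changes were 1.02 and 0.73 without overlap. GPC4, a glypican, had 3.12, 2.37 and 3.16 CPM at day 6, against 0, 0.114 and 0.197 CPM at day 0, and HS6ST3, a 6-O-sulfotransferase, had 8.03, 7.19 and 5.37 CPM at day 6, against 2.72, 2.79 and 3.15 CPM at day 0. Both rose, by 4.58 and 1.27. The fallen member was GPC2, another glypican.

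Among ligands and receptors, 5 of 39 Wnt pathway genes rose and FZD5 fell, with a median of 0.02, and the fallen count became 0 without any 1 of the libraries other than day 0 replicate 2. With the replicate block 6 Wnt genes were higher and 3, RYK and NKD2 among them, were lower. WNT7B, an epithelial Wnt ligand, had 51.1, 51.4 and 58 CPM at day 6, against 23, 25.2 and 21.4 CPM at day 0 and rose by 1.2 ± 0.13 (adjusted p = 5.84e-06). WNT4 had 1.87, 1.73 and 1.42 CPM at day 6, against 0.247, 0.227 and 0.460 CPM at day 0, at a log2 change of 2.41, and WNT9A rose by 2.11. Of 45 genes of the TGF-β and BMP pathway 4 rose and FST fell, with a median of -0.01, and FST was not called without any 1 of day 6 replicate 1 and day 0 replicate 1 (adjusted p = 0.106 to 0.146). The block gave 7 higher and 6 lower. TGFBR2, the type II receptor of TGF-β, had 13.4, 14 and 18.5 CPM at day 6, against 6.92, 4.43 and 4.6 CPM at day 0, and the ligand BMP7, part of whose span lies under its antisense gene, had 14.9, 11.4 and 11.9 CPM at day 6, against 6.1, 5.29 and 4.73 CPM at day 0. LTBP1, which stores latent TGF-β in the matrix, had 129, 116 and 141 CPM at day 6, against 81.5, 66.3 and 66.1 CPM at day 0. The 3 log2 changes were 1.52, 1.25 and 0.85, and none overlapped between the groups, which the rule for naming them required. Of 41 genes of FGF, IGF, ALK and other receptor tyrosine kinases 6 rose and 2 fell, with a median of -0.01, and 11 were higher and 2 lower with the replicate block. The 6 became 3 without any 1 of day 6 replicates 2 and 3 and day 0 replicates 1 and 2, and the 2 became 0 without day 6 replicate 1 or day 0 replicate 1 and 1 without day 6 replicate 2, day 6 replicate 3 or day 0 replicate 3. MERTK, a receptor of the TAM family, had 4.52, 5.61 and 6.01 CPM at day 6, against 1.65, 2.16 and 1.64 CPM at day 0 (log2 change 1.54). None of 21 ERBB ligands and receptors was called without the block.

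Cytokine genes were few but included large changes. Of 36 tested, 5 rose and 2 fell, with a median of -0.02, and 7 were higher and 7 lower with the replicate block. The 5 became 3 without day 6 replicate 1. IL23R, a subunit of the interleukin-23 receptor, had 10.1, 12 and 16.4 CPM at day 6, against 1.15, 0.455 and 0.197 CPM at day 0. It rose by 4.47 ± 0.67 (adjusted p = 0.000211). IL23A, the p19 subunit of the ligand, had 3.12, 5.18 and 3.48 CPM at day 6, against 8.57, 13.4 and 11.6 CPM at day 0 and fell by 1.49 on the log2 scale (adjusted p = 0.00101). CXCL14, an epithelial chemokine, had 5.93, 9.64 and 11.5 CPM at day 6, against 1.48, 2.39 and 1.84 CPM at day 0 and rose by 2.21. CX3CL1, a membrane-bound chemokine, had 24 counts at day 6 and 0 at day 0, at least 10.9-fold higher with day 0 set to 3 counts over the group, and it was not called without day 0 replicate 2 (adjusted p = 0.0558).

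Antigen presentation and interferon genes had rises only. Of 22 MHC class I genes 3 rose and 0 fell, with a median of 0.16, and 6 were higher and 0 lower with the replicate block. B2M, which encodes the beta-2 microglobulin subunit of MHC class I, had 949, 1200.0 and 1076 CPM at day 6, against 430.2, 457 and 423 CPM at day 0. Every day 6 library was above every day 0 one, with a log2 change of 1.30 ± 0.11 (edgeR, adjusted p = 1.09e-07). HLA-C had 204, 167 and 163 CPM at day 6, against 133, 114 and 105 CPM at day 0 (log2 change 0.60, adjusted p = 0.0229). It was not called without any 1 of day 6 replicate 1 and day 0 replicates 2 and 3 (adjusted p = 0.093 to 0.14), its reads may be shared with closely similar genes of its family, and 14.3% of its annotated span lies under MICB. Of 24 interferon response genes IFIT1, IFIT2 and IFI6 rose and 0 fell, with a median of 0.17, and 6 were higher with the replicate block. IFIT1 was not called without day 0 replicate 3 (adjusted p = 0.0512). IFI6 had 5.77, 8.63 and 8.54 CPM at day 6, against 2.88, 2.5 and 2.82 CPM at day 0 and rose by 1.47. APOBEC3C, a cytidine deaminase that acts on viral DNA, had 119.7, 131 and 146 CPM at day 6, against 17.8, 17.6 and 16.1 CPM at day 0. It rose by 2.94 ± 0.16 (adjusted p = 2.48e-10), and near-identical APOBEC3 paralogs make its count uncertain.

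Pumps and channels changed in both directions. FXYD3, a small regulator of the Na,K-ATPase (chromosome 19, 35115823 to 35124324), had 33.8, 39.1 and 34.9 CPM at day 6, against 1.15, 2.27 and 1.64 CPM at day 0. Its log2 change was 4.37 ± 0.27 (edgeR, adjusted p = 1.2e-09), with groups far apart. ATP1B2, the β2 subunit of the same pump, had 89.2, 88.7 and 128 CPM at day 6, against 15.1, 15.6 and 16.9 CPM at day 0 and rose by 2.68 ± 0.43 (adjusted p = 0.000386). ATP12A, the non-gastric H,K-ATPase, had 2.65, 3.09 and 1.58 CPM at day 6, against 9.23, 10.4 and 5.85 CPM at day 0, and its log2 change was -1.73. Of 55 ion channels 4 rose and KCNN4 and TRPM5 fell, with a median of -0.02, and 5 were higher and 6 lower with the replicate block. CACNA1H, a T-type calcium channel, had 24.9, 16.6 and 14.5 CPM at day 6, against 3.71, 2.22 and 2.36 CPM at day 0 (log2 change 2.78). TRPM6, a magnesium channel, had 4.44, 3.81 and 6.64 CPM at day 6, against 0.494, 0.284 and 0.197 CPM at day 0 (log2 change 3.91). KCNN4, a calcium-activated potassium channel, had 3.43, 2.81 and 3.16 CPM at day 6, against 8.41, 9.44 and 8.87 CPM at day 0 and fell by 1.51 on the log2 scale. LIPF, which encodes gastric lipase, had 4.29, 7.19 and 5.85 CPM at day 6, against 0.330, 0.171 and 0.197 CPM at day 0 and rose by 4.63 ± 0.47 (adjusted p = 1.62e-06). SIPA1L2, a GTPase-activating protein for Rap, had 7.8, 6.91 and 7.43 CPM at day 6, against 0.247, 0.0568 and 0.0657 CPM at day 0, a log2 change of 5.93 ± 0.43.

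Some tuft cell markers fell. Of 15 tested, BMX, TRPM5, SH2D6, GFI1B and ALOX5 fell and 0 rose, with a median of -0.30 and 3 positive changes. The 5 became 2 without day 6 replicate 3 or day 0 replicate 2 and 3 without day 6 replicate 1 or day 0 replicate 1, and BMX alone was called in all 6 of these fits. The summed level was 971 to 1050 CPM at day 6, against 1234 to 1326 CPM at day 0. In bulk libraries fewer cells of a type and less RNA per cell cannot be told apart. BMX, a tyrosine kinase of the TEC family, had 22.7, 23.5 and 16.4 CPM at day 6, against 70.0, 64.6 and 60.6 CPM at day 0, with no overlap and a log2 change of -1.62 ± 0.15 (edgeR, adjusted p = 6.49e-07). SH2D6 had 19.9, 17.5 and 11.5 CPM at day 6, against 37.5, 31.5 and 31.9 CPM at day 0 (log2 change -1.02), and it was not called without day 6 replicate 3 (adjusted p = 0.0609). GFI1B, a zinc finger repressor, had 60.5, 65.4 and 50.3 CPM at day 6, against 79.4, 99.8 and 71.6 CPM at day 0 (log2 change -0.51), and it was not called without any 1 of day 6 replicates 1 and 3 and day 0 replicates 1 and 2 (adjusted p = 0.0634 to 0.256). TRPM5 was not called without any 1 of day 6 replicates 1 and 2 and day 0 replicates 1, 2 and 3 (adjusted p = 0.0872 to 0.231), nor ALOX5 without any 1 of day 6 replicates 2 and 3 and day 0 replicates 1 and 2 (adjusted p = 0.0547 to 0.136). POU2F3, the tuft cell lineage factor, had 166, 145 and 169.9 CPM at day 6, against 183, 196 and 210.1 CPM at day 0; its adjusted p was 0.198 without and 0.00742 with the replicate block (log2 change -0.30). With the block 8 tuft markers were lower and 3, ASCL2, HTR3E and DCLK1, were higher. Of 12 neuroendocrine markers SCGN, a calcium sensor of secretory cells, rose, at 2.42, 3.52 and 3.0 CPM at day 6, against 0.824, 0.739 and 0.854 CPM at day 0, and 0 fell, with a median of -0.09. With the block NCAM1 and DLL3, a Notch ligand of neuroendocrine tumors, were lower.

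Other falls were in genes of varied function. PPP1R1B, SLC1A7 and ART3 had the 3 largest falls among called genes without overlap that averaged at least 5 CPM at day 0, and larger falls were found at lower levels, as in TCF23. PPP1R1B, the phosphatase inhibitor DARPP-32, had 21.1, 34.1 and 27 CPM at day 6, against 83.1, 147 and 99.4 CPM at day 0, a log2 change of -2.0 ± 0.30 (adjusted p = 0.000208). SLC1A7, a glutamate transporter, had 2.18, 1.87 and 2.21 CPM at day 6, against 8.16, 7.05 and 8.08 CPM at day 0 (log2 change -1.90). ART3, of the ADP-ribosyltransferase family, had 1.48, 0.575 and 1.11 CPM at day 6, against 4.94, 5.12 and 5.78 CPM at day 0 and fell by 2.34 on the log2 scale; its span overlaps CXCL10 and CXCL11. TCF23, a basic helix-loop-helix factor, had 0.624, 1.15 and 0.474 CPM at day 6, against 2.88, 6.08 and 5.98 CPM at day 0 and fell by 2.64. None of these 4 overlapped between groups, which the naming rule required of all but TCF23. Among genes of at least 50 CPM, those of smallest p were BMX, CRYM, PIK3R5, FLRT2 and DAB1. CRYM, a thyroid hormone-binding crystallin with an antisense gene over part of its span, had 54.7, 64 and 52.3 CPM at day 6, against 121, 123 and 104 CPM at day 0. PIK3R5, a regulatory subunit of phosphoinositide 3-kinase gamma, had 34.5, 35.3 and 34.8 CPM at day 6, against 63.5, 66.1 and 63.4 CPM at day 0. FLRT2, a fibronectin-leucine-rich transmembrane protein, had 25, 30.6 and 26.9 CPM at day 6, against 60.8, 50.2 and 65.8 CPM at day 0. Their log2 changes were -1.03, -0.88 and -1.10.

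Smaller numbers of calls came from lists of epithelial function. Of 14 mucin and secretory genes MUC16, AGR2 and FCGBP rose and 0 fell, with a median of 0.02. MUC16, a membrane mucin, had 52.9, 45.4 and 65.4 CPM at day 6, against 22.6, 26 and 29.2 CPM at day 0 (log2 change 1.07 ± 0.20, adjusted p = 0.00242), and FCGBP, a mucus protein that binds IgG Fc, had 137, 112 and 124 CPM at day 6, against 85.7, 77.5 and 73.9 CPM at day 0 (log2 change 0.65). Of 21 epithelial proteases and inhibitors 4 rose (KLK7, KLK11, PRSS8 and SPINT1) and PRSS22 fell, with a median of 0.25, and 7 were higher and 2 lower with the block. The 4 became 0 without day 0 replicate 3, 1 without day 6 replicate 2 and 2 without any 1 of the other libraries. KLK7 rested on 11 counts at day 6 and 0 at day 0. It kept its call only without day 6 replicate 1 (edgeR, adjusted p otherwise 0.108 to 0.142). PRSS8 kept its call only without day 0 replicate 2 (adjusted p otherwise 0.0516 to 0.0985). KLK11, a kallikrein protease, had 424, 399 and 365 CPM at day 6, against 269, 291 and 239.7 CPM at day 0 (log2 change 0.57), and it was not called without day 0 replicate 3 (adjusted p = 0.0502). Of 38 lipid barrier and fatty acid genes 4 rose and 0 fell, with a median of 0.11, against 9 and 2 with the block. The 4 became 2 without any 1 of day 6 replicates 1 and 2 and day 0 replicate 3; ACSL3 and LIPF were called in all 6 of these fits, ALOX12B and FADS3 in 1 each. ACSL3, a long-chain acyl-CoA synthetase, had 82.6, 81.9 and 74.3 CPM at day 6, against 56.5, 53.6 and 57.1 CPM at day 0 (log2 change 0.52). MYOF, which encodes the membrane-repair protein myoferlin, was the 1 called gene of 25 Hippo pathway targets, with 26.4, 20.2 and 25.9 CPM at day 6, against 12.6, 8.75 and 11.1 CPM at day 0 (log2 change 1.16). The called share of that list was 4.0%, against 4.97% of all tested genes. Of 27 amino acid transporters SLC7A8, a carrier of neutral amino acids, rose by 0.87 and SLC1A7 fell, and the block gave 4 and 4. The called share without the block was 7.41%, against 4.97% of all tested genes. Of 15 genes of mesenchymal transition FN1, TGFBI, LOX and CD44 rose and 0 fell, and of these FN1, TGFBI and LOX are also in the matrix list. CD44, a hyaluronan receptor, was not called without any 1 of day 6 replicates 2 and 3 and day 0 replicate 1 (adjusted p = 0.0569 to 0.0973). Of 32 Notch pathway genes HES2 rose and JAG1 fell, with a median of -0.05, a called share of 6.25% against 4.97% of all tested genes.

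Growth and stress lists held few calls without the replicate block. None of 40 G1/S and replication genes was called, and of 39 G2/M and mitosis genes AURKA and KIF2C fell and 0 rose. The called share of the G2/M list was 5.13%, against 4.97% of all tested genes called and 1.44% that fell. The G2/M median was -0.24, and 0 of the 39 log2 changes were positive. With the replicate block 18 were lower, against 5.94% of all tested genes. KIF2C, a mitotic kinesin, was not called without any 1 of day 6 replicate 1 and day 0 replicate 2 (adjusted p = 0.0718 to 0.0783). AURKA, a mitotic kinase, had 93.5, 96 and 90.7 CPM at day 6, against 117, 124 and 116 CPM at day 0 and fell by 0.35 on the log2 scale (adjusted p = 0.00508). Of 32 ATF4 and amino acid stress genes 4 fell and 0 rose, with a median of -0.21, and 10 were lower with the block. The 4 became 1, MTHFD2, without any 1 of day 6 replicate 1 and day 0 replicates 1 and 2, and PSAT1, TRIB3 and CEBPG lost their calls there. MTHFD2, a mitochondrial folate enzyme, had 432, 551 and 507 CPM at day 6, against 752, 699 and 672 CPM at day 0, a fall of 0.51 on the log2 scale (adjusted p = 0.00196), and 6.97% of its span lies under SLC4A5. Among 31 p53-family apoptosis and arrest genes, TP63, PLK2 and CD82 rose, and BBC3, PMAIP1 and FAS, which promote cell death, fell. TP63 is the induced gene, so its rise was set by the design and is no response of a target. PLK2 was not called without day 0 replicate 2 (edgeR, adjusted p = 0.0563). The 3 fallen became 1 without any 1 of day 6 replicate 1 and day 0 replicates 1 and 3. FAS was not called without any 1 of day 6 replicates 1 and 3 and day 0 replicates 1, 2 and 3 (adjusted p = 0.0777 to 0.189), and the block gave 5 higher and 7 lower. Of 31 polycomb genes EED and CBX6 rose and EZH1 and PHC1 fell, with a median of -0.08, and every one of these 4 lost its call when some single library was left out. EED lost it without any 1 of day 6 replicates 1 and 3 and day 0 replicates 1 and 2 (adjusted p = 0.0634 to 0.12), CBX6 without any 1 of day 6 replicates 2 and 3 and day 0 replicates 1, 2 and 3 (adjusted p = 0.0783 to 0.254), EZH1 without any 1 of day 6 replicates 1 and 2 and day 0 replicates 1, 2 and 3 (adjusted p = 0.0723 to 0.197) and PHC1 without any 1 of day 6 replicates 2 and 3 and day 0 replicates 1, 2 and 3 (adjusted p = 0.0759 to 0.179). None of 25 HOX genes, 23 cholesterol synthesis genes, 37 glycolysis and hypoxia genes or 27 NF-κB genes was called without the block. With it, 0 HOX, 4 cholesterol, 4 glycolysis and 3 NF-κB genes were called.

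**Figure D3:**
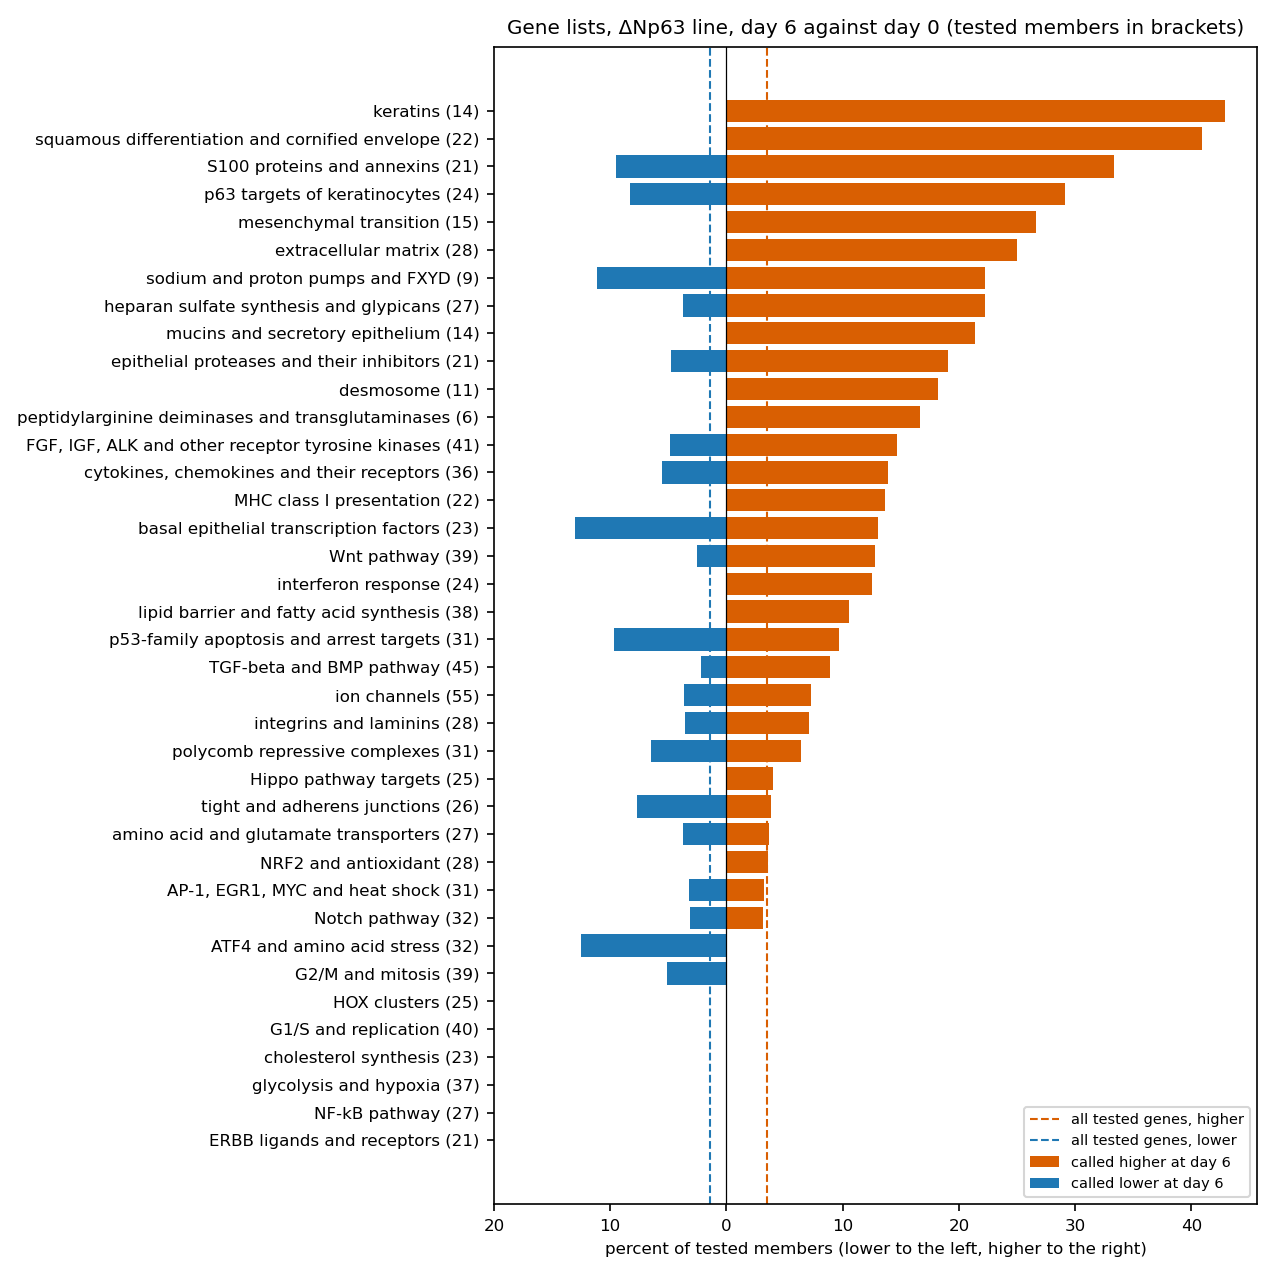
Percent of tested members of each of 38 gene lists called higher (orange, to the right) or lower (blue, to the left) at day 6 against day 0, with the number tested in brackets. Dashed lines give the same shares over all tested genes, 3.52% higher and 1.44% lower; keratins and squamous differentiation genes have the largest shares called higher.

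Markers of other cell types gave no common rise. None of 3 columnar, 4 endothelial or 10 erythroid markers was called without the block. LYZ, which encodes lysozyme, was the 1 fallen gene among 7 immune markers, with 473, 599.8 and 647 CPM at day 6, against 895, 905 and 1078 CPM at day 0; it was not called without any 1 of day 6 replicate 1 and day 0 replicate 3 (adjusted p = 0.0556 to 0.0733). Among 4 fibroblast markers COL3A1 rose and PDGFRA fell, and PDGFRA was not called without any 1 of day 6 replicates 1 and 3 and day 0 replicate 1 (adjusted p = 0.0573 to 0.0692). COL3A1 was not called without day 6 replicate 1 (adjusted p = 0.0636). The erythroid gene HBG2, a fetal globin near-identical to HBG1, had 18, 0.647 and 0.948 CPM at day 6, against 30.7, 5.23 and 0.131 CPM at day 0. Its levels were highest in replicate 1 on both days, and its part in any result was not tested.

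The TAp63 line, which has its own day 0 libraries, allowed the responses of the lines to be compared. The difference of the day 6 responses was called for 44 genes (0.279%), 33 higher in the ΔNp63 line (0.209%) and 11 lower (0.0697%). With the replicate block the counts were 165 and 130. Of the 784 genes called in the ΔNp63 line, 41 were among the 44. Of the risen genes, 501 of 556 (90.1%) had a positive log2 change in the TAp63 line, with a median of 0.35, against 46.6% of all tested genes. Of the 228 fallen genes 194 (85.1%) had a negative one, with a median of -0.22. The 33 became 21 without ΔNp63 day 0 replicate 2. The 11 became 4 to 7 without any 1 of 10 of the 12 libraries, and 10 without ΔNp63 day 0 replicate 3 or TAp63 day 6 replicate 3.

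The response of TP63 itself was not called different between the lines, at -0.059 ± 0.23 (ΔNp63 minus TAp63, adjusted p = 1), and its day 6 level was 926 ± 100.1 CPM in the ΔNp63 line and 655 ± 41.7 CPM in the TAp63 line. KRT5, PADI3 and FXYD3 had the largest positive differences. KRT5 averaged 22.5 ± 3.46 CPM at day 6 and 0.641 ± 0.108 CPM at day 0 in the ΔNp63 line, and 0.712 ± 0.0600 and 0.496 ± 0.128 CPM in the TAp63 line, a difference of log2 changes of 4.61 ± 0.52 (adjusted p = 9.27e-05). PADI3 averaged 88.5 ± 7.29 and 3.04 ± 0.0651 CPM in the ΔNp63 line, against 4.51 ± 0.828 and 3.56 ± 1.22 CPM in the TAp63 line (difference 4.42 ± 0.29, adjusted p = 2.28e-08). FXYD3 averaged 35.9 ± 2.82 and 1.69 ± 0.562 CPM, against 2.0 ± 0.681 and 2.42 ± 0.862 CPM (difference 4.55 ± 0.39, adjusted p = 1.44e-06). In the TAp63 line itself the day 6 changes of these 3 genes were not called (adjusted p = 1 for KRT5, 0.707 for PADI3 and 1 for FXYD3). TGFBI differed by 3.44 ± 0.29, LIMS2 by 3.35 ± 0.56, CACNA1H by 2.43 ± 0.41 and TRIM29 by 1.88 ± 0.25, all higher in the ΔNp63 line. KRT13 differed by 2.06 ± 0.37 (adjusted p = 0.013), and this was not called without ΔNp63 day 0 replicate 2 (adjusted p = 0.0606).

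Lower responses in the ΔNp63 line included TCF23, APOL4 and SLC1A7. TCF23 averaged 0.750 ± 0.355 CPM at day 6 and 4.98 ± 1.82 CPM at day 0 in the ΔNp63 line, against 6.2 ± 1.33 and 4.0 ± 0.146 CPM in the TAp63 line (difference -3.25 ± 0.46, adjusted p = 0.0015). APOL4, an apolipoprotein L gene, averaged 15.5 ± 1.78 and 40.5 ± 2.28 CPM, against 55.1 ± 6.86 and 42.4 ± 2.97 CPM (difference -1.77 ± 0.24, adjusted p = 0.000992). CSRP2, a LIM domain protein, rose less in the ΔNp63 line, at 33.8 ± 4.26 and 13.6 ± 1.37 CPM, against 71.1 ± 4.91 and 14 ± 3.57 CPM in the TAp63 line; the difference of -1.06 ± 0.21 was not called without any 1 of ΔNp63 day 6 replicates 2 and 3, ΔNp63 day 0 replicates 1 and 2, TAp63 day 6 replicates 1 and 2 and TAp63 day 0 replicates 2 and 3 (adjusted p = 0.0577 to 0.131). SIPA1L2 and GPC4 had log2 changes of 5.93 and 4.58 in the ΔNp63 line and 6.96 and 7.67 in the TAp63 line, differences that were not called (adjusted p = 1 and 0.5).

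**Figure D4:**
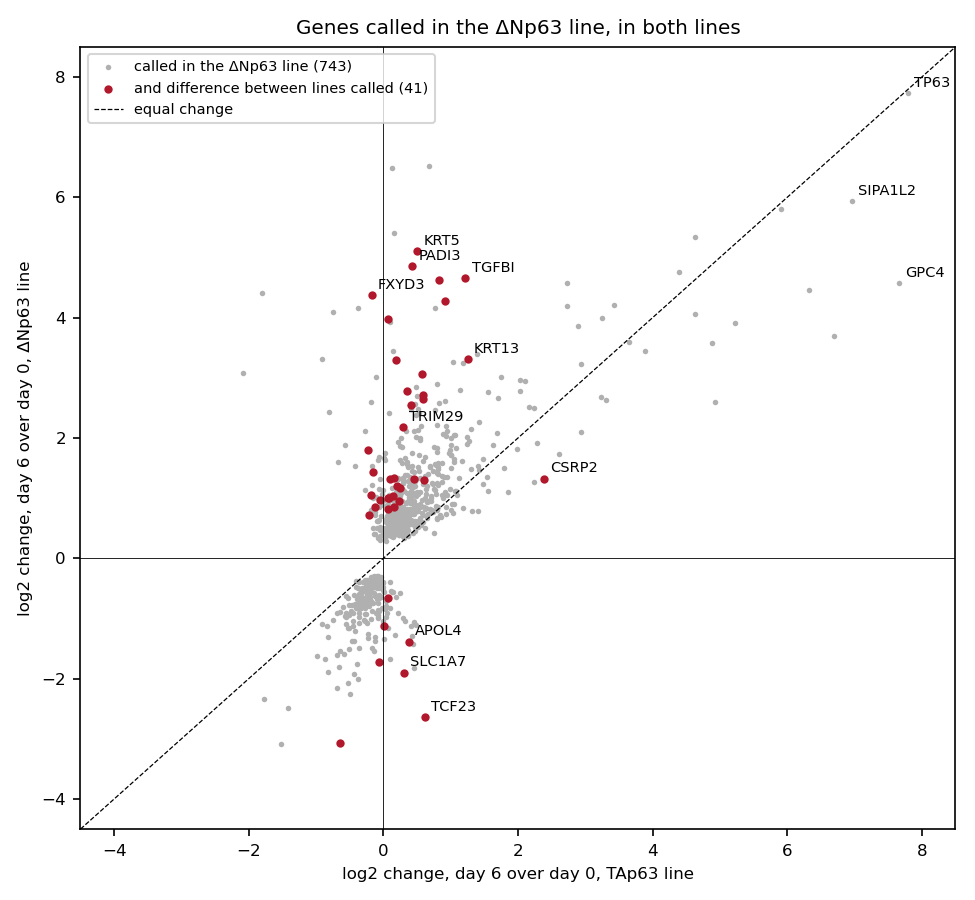
Log2 change at day 6 over day 0 in the ΔNp63 line (vertical axis) against the same in the TAp63 line (horizontal axis) for the 784 genes called in the ΔNp63 line. Red points are the 41 genes whose difference between lines was called, grey points the other 743, and the dashed line marks equal change; KRT5, PADI3 and FXYD3 lie high on the left and TP63 on the line.

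Few genes were called different between days 3 and 6. The risen genes had median log2 changes over day 0 of 0.21 at day 1, 0.80 at day 3 and 0.95 at day 6, and the fallen ones -0.22, -0.54 and -0.73; these share the day 0 libraries and are given side by side only. Set directly against day 3, 14 genes were called at day 6 (0.0887%), 10 higher (0.0634%) and 4 lower (0.0253%). With the replicate block the counts were 101 and 138. The 10 became 4 without any 1 of the 3 day 3 libraries, and the 4 became 2 without day 6 replicate 2 or day 3 replicate 3.

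Those still higher at day 6 than at day 3 included KRT5, TGFBI, FXYD3, FN1, BMP7 and LIPF. KRT5 averaged 0.641 CPM at day 0, 1.13 at day 1 (2 libraries), 7.54 at day 3 and 22.5 at day 6, a log2 change of 1.58 ± 0.23 between the last 2 times (adjusted p = 0.0024). FXYD3 went through means of 1.69, 2.72, 10.7 and 35.9 CPM over the same days (day 6 over day 3 1.75 ± 0.22, adjusted p = 0.0013). FN1 had means of 35.4, 34.9, 68.9 and 137 CPM (day 6 over day 3 0.99 ± 0.14). PADI3, in contrast, averaged 3.04, 33.6, 93.6 and 88.5 CPM, and its day 6 and day 3 levels were not called different (-0.082 ± 0.16, adjusted p = 1). The 4 lower at day 6 than at day 3 were HTR3E, ALK, APOL4 and OPCML, the last named after its values were seen. HTR3E, a serotonin receptor subunit of tuft cells, averaged 18.7, 35.1, 67.8 and 24.9 CPM (day 6 over day 3 -1.45 ± 0.15, adjusted p = 7.2e-05), with 81.7% of its span under HTR3E-AS1 and so uncounted. ALK, a receptor tyrosine kinase, averaged 0.265, 2.89, 7.15 and 1.59 CPM (day 6 over day 3 -2.20 ± 0.30, adjusted p = 0.00158). Day 6 levels of ALK were still above day 0, by 2.60 ± 0.43 (adjusted p = 0.000632).

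**Figure D5:**
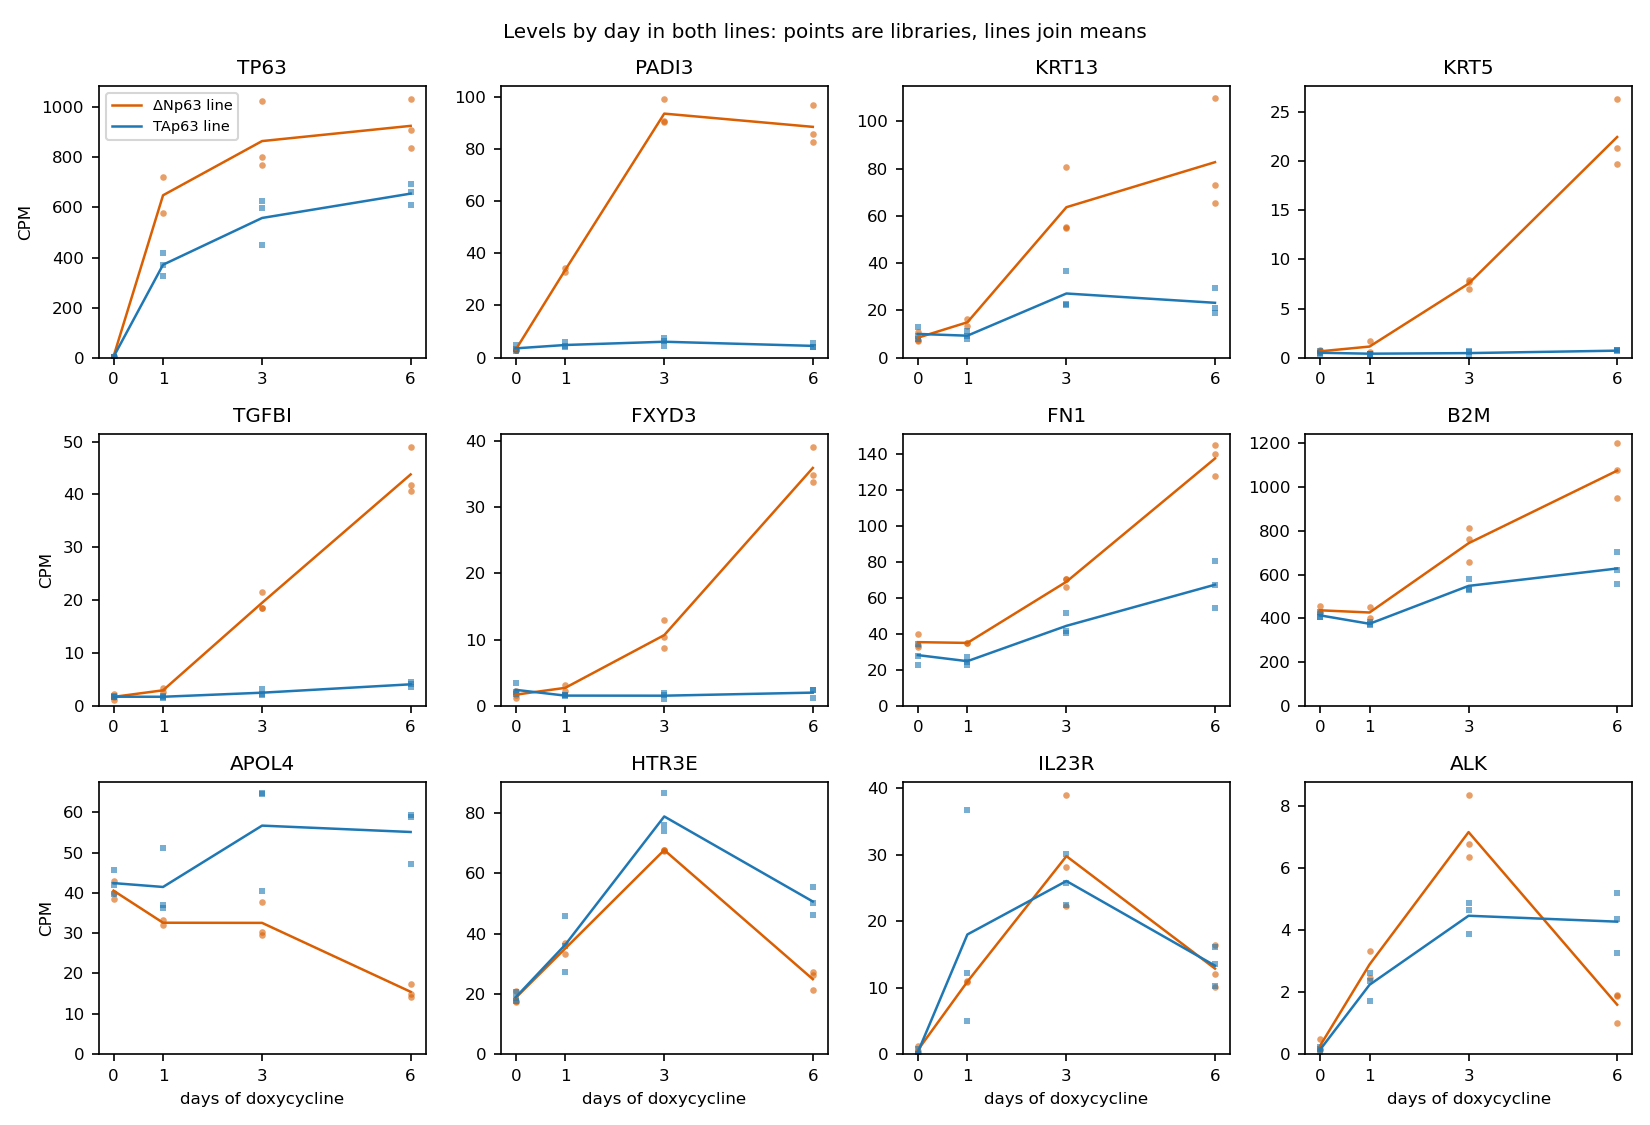
CPM (vertical axes, from 0) by days of doxycycline (horizontal axes) for 12 genes, with points for libraries and lines through their means, orange for the ΔNp63 line and blue for the TAp63 line. KRT5, TGFBI, FXYD3 and FN1 are higher at day 6 than at day 3 in the ΔNp63 line, PADI3 was not called different between them, and HTR3E, IL23R and ALK peak at day 3 in that line.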

How the data were processed

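Gene counts of the 24 libraries were used as deposited. Per the labels' protocols, RNA came from TRIzol extraction and was prepared with NEBNext Ultra reagents. HISAT2 2.1.0, featureCounts 1.6.1, DESeq2 and the build hg38 are named, per the submitters' processing notes; per the file headers, the deposited counts came from featureCounts 2.0.0. The header's command counted fragments over whole transcript spans, introns included, with no strand option, and left fragments that overlap several genes uncounted, so genes under another gene's span are undercounted.

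Counts were analysed with edgeR 4.0.16 in R 4.3.3 (filterByExpr, TMM, glmQLFit, glmQLFTest). One fit with a mean per group held 23 libraries, without ΔNp63 day 1 replicate 3, and had 15 residual degrees of freedom; 15783 of 28278 genes were tested and 6005 had 0 counts throughout. Each SE was taken from the size of the log2 change and its F statistic (change over the root of F). Alternatives were the replicate block, the compared groups alone, all 24 libraries, RLE and upper quartile scaling, other filters, DESeq2 1.42.0, limma 3.58.1 (voom) and each library left out in turn. Replicate numbers are shared by the groups, and same-numbered libraries deviated together (correlations of 0.684, 0.368 and 0.449) and were taken as paired. The main fit had no block, so its calls, SEs and p-values ignore this pairing. Counts with the block are given beside them for many lists. Floors for groups with 0 counts were 3 counts, and intervals cover counting error only.

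Genes were named by rule: among called genes without overlap whose higher group averaged 5 CPM or more, the 14 largest rises and 12 largest falls; the 5 risen and 5 fallen of smallest p at 50 CPM or more; up to 4 called genes per list; the markers; and up to 8 differences between lines in each direction. The called list genes named by this rule were also without overlap, at any CPM. A gene outside the rule is named where a list count is spelled out. Members and lists were chosen with earlier results of these data known. Sequences are RefSeq's, GRCh38.p14. Values of some genes are not reported here.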

Additional observations from a re-analysis of the deposited data

Results flagged for a closer look

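The difference between the 2 lines' day 6 responses, tested as an interaction (ΔNp63 minus TAp63, edgeR), was called for 24 of the genes named by the rule. With all 12 libraries left out in turn, 11 of these kept their call and 13 lost it at least once.

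Those that kept it and were higher in the ΔNp63 line were KRT5 (4.61 on the log2 scale), FXYD3 (4.55), PADI3 (4.42), TGFBI (3.44), LIMS2 (3.35), CACNA1H (2.43), TRIM29 (1.88) and LAMB1 (0.93). Lower and kept were TCF23 (-3.25), SLC1A7 (-2.20) and APOL4 (-1.77).

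Higher in the ΔNp63 line but lost at least once were the following. LIPF differed by 3.81 and lost its call without any 1 of ΔNp63 day 6 replicates 2 and 3, ΔNp63 day 0 replicates 2 and 3, TAp63 day 6 replicates 1 and 2 and TAp63 day 0 replicate 3 (adjusted p = 0.0611 to 0.991). OLFML2A, a secreted olfactomedin-domain protein, differed by 3.11 and lost it without TAp63 day 0 replicate 3 (adjusted p = 0.0515). TNS4 differed by 2.49 and lost it without any 1 of TAp63 day 6 replicate 2 and TAp63 day 0 replicate 2 (adjusted p = 0.0543 to 0.11). KRT13 differed by 2.06 and lost it without ΔNp63 day 0 replicate 2 (adjusted p = 0.0606). LTBP1 differed by 0.97 and lost it without ΔNp63 day 0 replicate 2 (adjusted p = 0.0579). LOX differed by 1.58 and kept its call only without ΔNp63 day 6 replicate 3 (adjusted p otherwise 0.0609 to 0.149). GRHL1 differed by 0.71 and lost it without any 1 of ΔNp63 day 6 replicates 1 and 2, ΔNp63 day 0 replicates 1, 2 and 3, TAp63 day 6 replicate 2 and TAp63 day 0 replicates 1, 2 and 3 (adjusted p = 0.0511 to 0.0993). B2M differed by 0.70 and lost it without any 1 of ΔNp63 day 6 replicates 2 and 3, ΔNp63 day 0 replicates 1, 2 and 3, TAp63 day 6 replicates 1 and 3 and TAp63 day 0 replicates 1, 2 and 3 (adjusted p = 0.086 to 0.133).

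Lower in the ΔNp63 line and lost at least once were the following. ATP12A differed by -1.66 and lost its call without any 1 of ΔNp63 day 6 replicates 1 and 3, ΔNp63 day 0 replicates 1 and 2, TAp63 day 6 replicates 1 and 2 and TAp63 day 0 replicates 1, 2 and 3 (adjusted p = 0.0613 to 0.114). PLEKHB1 differed by -1.14 and lost it without any 1 of ΔNp63 day 6 replicates 1, 2 and 3, ΔNp63 day 0 replicates 1 and 2, TAp63 day 6 replicates 1 and 2 and TAp63 day 0 replicates 1, 2 and 3 (adjusted p = 0.0558 to 0.113). CSRP2 differed by -1.06 and lost it without any 1 of ΔNp63 day 6 replicates 2 and 3, ΔNp63 day 0 replicates 1 and 2, TAp63 day 6 replicates 1 and 2 and TAp63 day 0 replicates 2 and 3 (adjusted p = 0.0577 to 0.131). HTR3E differed by -1.03 and kept its call only without TAp63 day 6 replicate 1 (adjusted p otherwise 0.0511 to 0.126). SLC13A3, a dicarboxylate transporter, differed by -0.73 and lost it without any 1 of ΔNp63 day 6 replicates 1, 2 and 3, ΔNp63 day 0 replicates 1 and 2, TAp63 day 6 replicates 1 and 2 and TAp63 day 0 replicates 1, 2 and 3 (adjusted p = 0.0558 to 0.105).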

How the results depend on the processing

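For the 556 genes higher and 228 lower at day 6, the replicate block gave 1284 and 937, a fit of the compared groups alone 362 and 132, the same with the block 1298 and 1033, and all 24 libraries 253 and 65. Leaving out 1 of the 6 libraries gave 392 to 462 and 111 to 184. The difference between lines (33 higher, 11 lower) was 165 and 130 with the block, 19 and 6 in the compared groups alone, 215 and 184 with both, 9 and 4 in all 24 libraries, and 56 and 32 with DESeq2; upper quartile scaling gave 19 lower and a filter of 1 CPM in 3 libraries 18 lower. Leave-one-out gave 21 to 28 and 4 to 10. Day 6 against day 3 (10 higher, 4 lower) was 101 and 138 with the block, 200 and 508 in the compared groups with the block, 1 and 1 in all 24 libraries, and 21 and 11 with DESeq2; limma-voom gave 16 higher, and leave-one-out 4 to 8 and 2 to 6. The cause of these moves was not tested. Leave-one-out and compared-group fits hold fewer libraries than the main fit, and whether this moved the counts was not tested either. The TP63 change of 7.74 kept its call under every alternative run. No result named here changed sign. For single genes 1803 of the alternative values of the day 6 change kept the call and 215 lost it, and for differences between lines 410 and 118. Of the called genes named, 91 kept their day 6 call with each library left out and 37 lost it at least once. Beyond the values given, the replicate block ended no day 6 call. At day 6 the shallowest library held 6375963 counts, which limits genes under 1 CPM most.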

Other observations

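Several more genes rose at day 6 of ΔNp63 and are given here as values. AMOT and GSTA1 were chosen after their values were seen. MFSD4A-AS1, a long non-coding RNA partly under MFSD4A, had 20.5, 25.7 and 27.3 CPM at day 6, against 1.98, 1.82 and 2.23 CPM at day 0, with strand not used in counting. The uncharacterized LOC101928882 had 5.46, 4.82 and 7.11 CPM at day 6, against 0.330, 0.341 and 0.328 CPM at day 0. AMOT, a junction protein of the Hippo pathway, averaged 156 ± 24.6 CPM at day 6 and 79.4 ± 2.19 CPM at day 0 in the ΔNp63 line, against 82.1 ± 5.91 and 84.7 ± 2.95 CPM in the TAp63 line (difference of log2 changes 1.01 ± 0.14, edgeR adjusted p = 0.00135). AMOT was also higher at day 6 than at day 3, by 0.52 ± 0.10 (adjusted p = 0.0441). GSTA1, a glutathione transferase, averaged 5.14 ± 0.405 CPM at day 6 and 0.535 ± 0.0653 CPM at day 0 (log2 change 3.24 ± 0.35, adjusted p = 3.25e-06), and 0.741 ± 0.115 and 0.288 ± 0.117 CPM in the TAp63 line.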
